A study of Mus musculus with 12 samples.

Results

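The interferon-stimulated effector genes are 54 mouse genes that interferons switch on and whose products act in the infected or exposed cell. They were taken by name and not by a threshold on measured values, but with earlier results of these data known. The list leaves out the IRF and STAT transcription factors, the Gbp genes and the sensors of foreign nucleic acid. All 54 were found among the 54119 genes summed from the transcript files, all 54 are in the gene table of the authors, and all 54 were among the 19150 genes tested.

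Interferons are secreted proteins that bind receptors at the cell surface and activate JAK kinases, which phosphorylate STAT transcription factors. A complex of STAT proteins with IRF9 binds a DNA element called the interferon-stimulated response element (ISRE), whereas STAT dimers, typical of the response to interferon gamma, bind the gamma-activated site (GAS). LPS, a component of the outer membrane of Gram-negative bacteria, can lead to this response through TLR4 and its adaptor TRIF, and the endothelial cells of the blood-brain barrier are known to respond to interferons.

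The study compared cerebral vessels isolated from the forebrain of wild type C57BL6 mice, 2 to 3 months old, that received LPS at 10 mg/kg into the peritoneum 15 min, 30 min or 4 h before, or PBS. Each of the 4 groups had 3 libraries, and each library pooled 1 male and 1 female, so sexes and single animals cannot be read apart. Mice were perfused with PBS and the meninges were removed, and vessels were spun through dextran and retained on a nylon mesh, so the RNA is that of whole vessel fragments and not of 1 cell type. The libraries held 18.3 M to 25.9 M fragments.

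The vessel label was checked against marker genes. The 7 endothelial markers (among them Cldn5 and Pecam1) summed to 9413 to 9714 in PBS on the CPM scale (counts per library total scaled with TMM factors), against 286 to 296 for 4 neuronal markers. The endothelial sum was 6336 to 6382 CPM at LPS 4 h, when 5 of the 7 were called lower and 1 higher. The 7 neutrophil markers went from 4.34 to 4.92 CPM in PBS to 192 to 196 CPM at LPS 4 h, with Ly6g and Mpo at 0 in all PBS libraries, and the 4 monocyte markers went from 38.6 to 47.8 to 135 to 139 CPM. The 3 red cell markers went from 1479 to 1595 in PBS to 4439 to 4646 CPM, and the 7 microglial markers from 149 to 152 to 94.0 to 99.5 CPM. In RNA from tissue, more cells of a type and more RNA per cell cannot be told apart. The 5 astrocyte markers summed to 715 to 735 CPM in PBS and 1366 to 1413 at LPS 4 h, where only Gja1 of them was called. Early shifts were also seen: at LPS 15 min the 4 neuronal markers summed to 453 to 463 CPM, with Syt1 and Slc17a7 called higher, and the 4 smooth muscle markers to 1487 to 1507 CPM against 2344 to 2380 in PBS, with 3 called lower. The part of all these shifts in the results was not tested.

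The question put to these genes was how early and how strongly the vessel fraction showed the interferon response after LPS. At LPS 4 h all 54 genes rose, by 2.38-fold (Ifi27l2a) to 388-fold (Mx1) on the CPM scale. Scaled by library size alone, the median of their log2 fold changes was 3.41 instead of 4.11, and 53 were called, without Ifi27l2a (log2 0.55, edgeR adjusted p 0.470). At LPS 15 min none passed the test beyond 1.5-fold, and at LPS 30 min 2 did, Tgtp1 and Slfn5. Calls came from edgeR's quasi-likelihood fit tested against a 1.5-fold change, at p below 0.05 after Benjamini-Hochberg adjustment across the 19150 genes. Of all genes tested, 19.0% were called higher and 13.8% lower at LPS 4 h, 3.78% higher and 0.799% lower at LPS 30 min, and 3.31% higher and 0.872% lower at LPS 15 min.

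**Figure D1:**
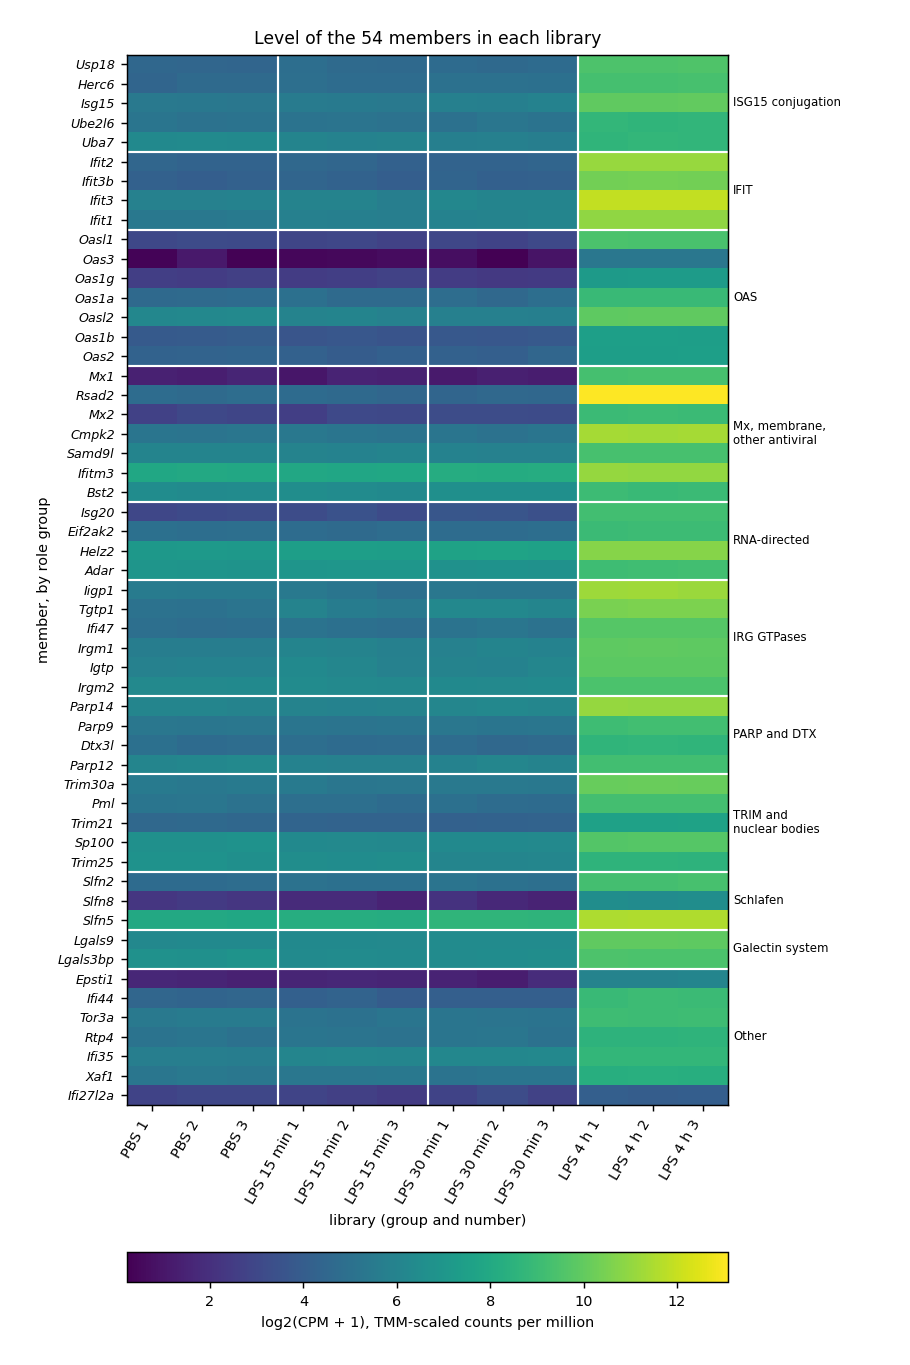
Level of each of the 54 genes (rows, by role group) in each of the 12 libraries (columns), as log2(CPM + 1), from dark blue (low) to yellow (high). The 3 LPS 4 h columns are brighter in every row, whereas the PBS, LPS 15 min and LPS 30 min columns look alike in most rows; Rsad2 reached 8608 to 8726 CPM at LPS 4 h.

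Against PBS, the median log2 fold change of the 54 genes was 4.11 at LPS 4 h, where the median over all genes tested was -0.01. It had been -0.02 at LPS 30 min and -0.01 at LPS 15 min. The libraries of all 54 lay above all PBS libraries at LPS 4 h, as did those of 35.9% of all genes, and with no fold limit 34.9% of all genes were called higher. Between LPS 30 min and LPS 4 h the median was 4.13 and again all 54 were called higher (16.9% of all genes called higher, 11.8% lower). These comparisons share the LPS 4 h libraries. None was called in either direction between LPS 15 min and LPS 30 min (2.69% higher, 1.96% lower of all genes). Tested against a 1.5-fold change, edgeR gave 0 members an unadjusted p below 0.05 in this comparison, as did DESeq2 and limma. With no fold limit, edgeR called 15 members higher (27.8%) and 6 lower (11.1%) here, where 19.2% and 18.2% of all genes were called.

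Measured per length, in TPM (a share of all transcripts after division by length), the 54 genes together made up 0.297% of all transcripts in PBS (0.292% to 0.301% over 3 libraries) and 2.59% at LPS 4 h (2.58% to 2.62%). The early groups stood at 0.291% (LPS 15 min) and 0.267% (LPS 30 min). On the CPM scale the sum went the other way at LPS 30 min, with 2920 to 2942 against 2696 to 2721 in PBS. At LPS 15 min it was 2619 to 2818 CPM, overlapping PBS. The median level of a member was 23.5 TPM in PBS and 312 TPM at LPS 4 h. Ifi27l2a went from 50.1 to 67.6 TPM and Mx1 from 2.20 to 296 TPM, smaller rises than on the CPM scale. The scales differ in more than length. CPM values carry TMM factors, with means of 1.17 (PBS), 1.04 (LPS 30 min) and 0.717 (LPS 4 h), and TPM values do not. The mean endothelial marker sum was 6386 TPM in PBS and 1632 TPM at LPS 4 h, a larger fall than in CPM. The part of this scaling in the gaps given for single genes was not tested. At 100 TPM or more stood 5 members in PBS and 46 at LPS 4 h. In PBS the order was led by Ifitm3 (901 ± 39.9 TPM, SD, n = 3), Bst2 (250 ± 8.48) and Isg15 (140 ± 3.22), and of 53 neighbours in the order 40 pairs had overlapping libraries. At LPS 4 h it was led by Ifitm3 (4186 ± 11.3 TPM), Ifit3 (2200 ± 28.1), Rsad2 (2045 ± 41.2) and Isg15 (1912 ± 18.4), and 22 of 53 neighbouring pairs overlapped. Ifitm3 alone made up 14.3% of the summed gain in TPM, Ifit3 9.32%, Rsad2 8.86% and Isg15 7.73%.

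**Figure D2:**
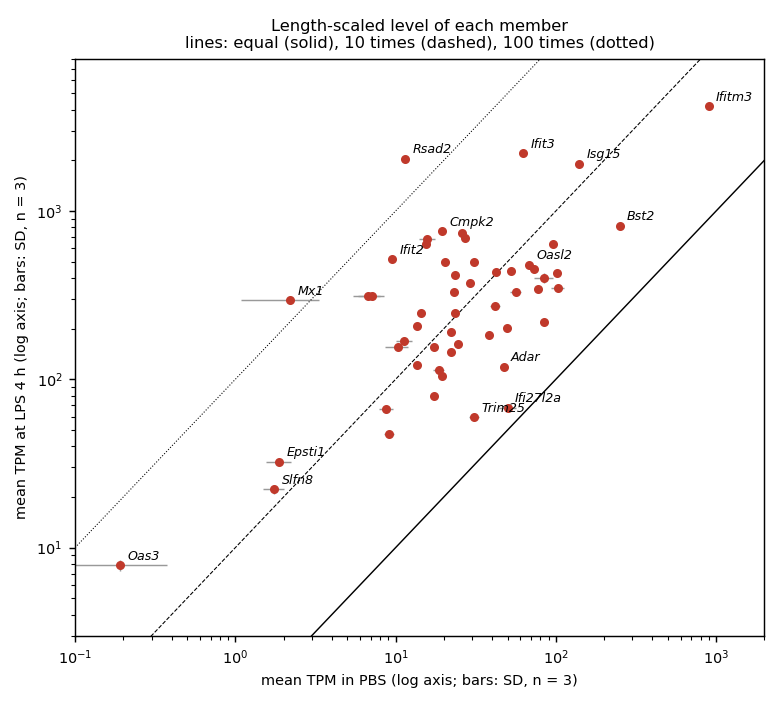
Mean TPM of each gene in PBS (horizontal, log axis) and at LPS 4 h (vertical, log axis), with SD over 3 libraries as bars; the solid line marks equal levels, the dashed line 10 times and the dotted line 100 times the PBS level. Every point lies above the solid line; Rsad2 (11.5 to 2045 TPM) and Mx1 (2.20 to 296 TPM) lie above the dotted line, and Ifitm3 is the rightmost and highest point. The left bar of Oas3 runs off the axis.

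The promoters of these genes were searched for the elements named above in RefSeq windows of 300 bases, from 250 before to 50 after a transcription start, on GRCm38.p6. Of the 54 genes 43 had at least 1 window, 51 windows in all, and 6 genes had more than 1. The ISRE core was searched as GAAANNGAAA, GAS as TTCNNNGAA, the NF-kB core as GGGNNNNNCC and the TATA box as TATAAA, each on both strands. An ISRE match was in the windows of 20 of the 43 genes (46.5%), against 1079 of 27025 genes in the table (3.99%). GAS was in 11 of 43 (25.6%, against 9.55%), NF-kB in 27 of 43 (62.8%, against 53.5%) and TATA in 3 of 43 (6.98%, against 15.7%). In 2 windows an ISRE match overlapped a GAS match, and in none an NF-kB match. A match is a description of letters and not a bound site.

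The 250 bases before the start of Isg15 (chr4:156200819-156201068) and Rsad2 (chr12:26456453-26456702), both on the minus strand, are shown 5′ to 3′ along the gene because these genes were among the highest at LPS 4 h. Capitals mark ISRE matches, of which 3 overlap in Isg15.
Isg15: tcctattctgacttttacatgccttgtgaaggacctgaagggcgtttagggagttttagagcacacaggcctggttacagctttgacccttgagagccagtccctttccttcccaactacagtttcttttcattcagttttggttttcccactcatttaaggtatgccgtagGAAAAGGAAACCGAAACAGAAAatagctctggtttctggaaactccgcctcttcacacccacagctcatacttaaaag
Rsad2: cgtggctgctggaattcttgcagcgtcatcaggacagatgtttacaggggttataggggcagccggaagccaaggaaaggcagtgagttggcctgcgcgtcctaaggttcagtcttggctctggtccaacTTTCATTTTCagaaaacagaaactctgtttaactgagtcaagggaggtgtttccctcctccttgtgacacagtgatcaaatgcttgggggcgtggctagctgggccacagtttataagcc
The Isg15 cluster began 78 bases before the start and the Rsad2 match, on the opposite strand, 120 bases before it.

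Shorter stretches show the ISRE match nearest the start in related genes, and in Bst2 and Slfn5, with matches in capitals. Some pairs of the related genes share more than the core. Coordinates are on GRCm38.p6.
Ifit1 (chr19:34640784-34640833, plus strand): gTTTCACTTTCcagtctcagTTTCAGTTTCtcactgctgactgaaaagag
Ifit3 (chr19:34583387-34583436, plus strand): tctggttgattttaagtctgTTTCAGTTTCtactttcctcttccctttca
Ifit3b (chr19:34607783-34607832, plus strand): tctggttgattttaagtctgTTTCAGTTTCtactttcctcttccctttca
Oas1a (chr5:120907526-120907559, minus strand): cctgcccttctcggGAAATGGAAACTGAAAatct
Oas1g (chr5:120887614-120887645, minus strand): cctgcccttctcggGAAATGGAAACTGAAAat
Igtp (chr11:58199502-58199551, plus strand): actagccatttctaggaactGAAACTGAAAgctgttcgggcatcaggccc
Irgm2 (chr11:58214893-58214942, plus strand): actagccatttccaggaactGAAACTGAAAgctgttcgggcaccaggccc
Tgtp1 (chr11:48992294-48992343, minus strand): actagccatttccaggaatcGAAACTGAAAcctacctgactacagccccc
Bst2 (chr8:71537567-71537616, minus strand): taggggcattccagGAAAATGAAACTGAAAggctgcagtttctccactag
Slfn5 (chr11:82951927-82951976, plus strand): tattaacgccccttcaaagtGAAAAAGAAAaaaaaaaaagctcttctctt
The Ifit3 and Ifit3b stretches differed at 0 of 50 bases, Oas1a and Oas1g at 0 of 32, and Igtp and Irgm2 at 2 of 50, whereas Tgtp1 differed from Irgm2 at 14 of 50. The Slfn5 match lies in a run of A.

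**Figure D3:**
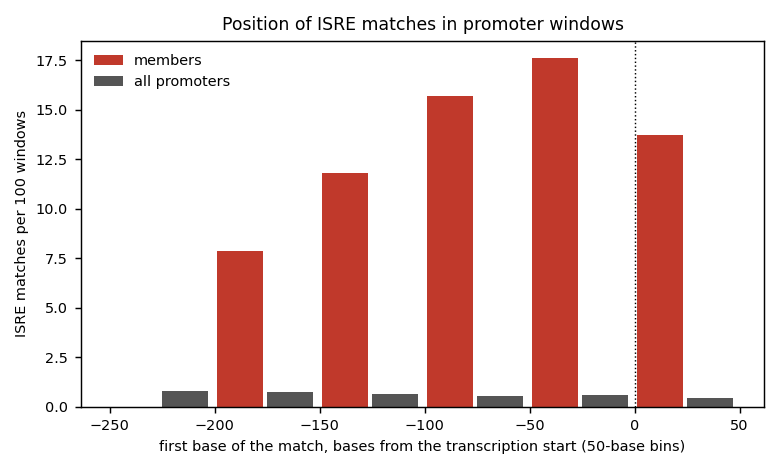
ISRE matches per 100 windows (vertical) by the distance of their first base from the transcription start in 50-base bins (horizontal). Red bars are the 51 windows of the 43 members that had a window, and grey bars are all windows in the table. The member bars are highest at 50 to 1 bases before the start (17.6 per 100 windows, against 0.6), and no member match began 250 to 201 bases before it.

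Of the 34 ISRE matches in member windows 23 (67.6%) began within 150 bases before the start, against 47.9% of 1210 matches in all windows. Overlapping matches were each counted, and 11 member windows held 2 or more matches. The same Slfn8 site was counted in each of 2 windows, so the 34 matches are not all separate sites. The median first base lay at -59 from the start in the members and at -123 in all windows. Members with and without a match all rose at LPS 4 h, with a median log2 fold change of 4.40 for the 20 with a match and 3.72 for the 23 without, and the ranges overlapped widely (2.59 to 8.37 and 1.86 to 6.79). Both genes called at LPS 30 min had a match, but among the other genes tested with a window 4.0% with a match and 3.92% without were called higher at that time. At LPS 4 h, 161 of 500 of them with a match (32.2%) were called higher, and 2317 of 12682 without (18.3%).

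The ISG15 system attaches the small protein ISG15 to other proteins: UBA7 activates it, UBE2L6 carries it, HERC6 ligates it in the mouse and USP18 removes it. All 5 genes rose at LPS 4 h (median log2 fold change 4.64). Isg15 stood at 41.4, 39.9 and 38.6 CPM in PBS, 46.4, 45.8 and 41.9 at LPS 15 min, 56.8, 53.8 and 59.1 at LPS 30 min, and 1004, 987 and 1007 at LPS 4 h. On this scale the 4 groups did not overlap and each lay above the one before, although only the last step passed the test beyond 1.5-fold. In TPM the LPS 15 min libraries (164, 161 and 148) and LPS 30 min libraries (166, 155 and 172) overlapped, both above PBS (143, 137 and 139). The log2 fold change of Isg15 at LPS 4 h was 4.64 (SE 0.038), with an edgeR adjusted p of 4.36e-29. Usp18 changed most in the group (5.09, SE 0.049) and Uba7 least (2.34, SE 0.034). In the LPS 30 min libraries Uba7 lay below PBS where Isg15 lay above it, at 53.1, 56.2 and 52.0 CPM against 79.1, 83.7 and 80.8 in PBS (log2 fold change -0.59, adjusted p 1 by edgeR beyond 1.5-fold).

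The IFIT proteins bind viral RNA that lacks host marks at its 5′ end. All 4 Ifit genes rose at LPS 4 h by 5.56 (Ifit1) to 6.79 (Ifit2) on the log2 scale. Ifit2 stood at 21.5, 19.2 and 19.1 CPM in PBS and 2193, 2239 and 2194 at LPS 4 h, 111-fold higher (log2 6.79, SE 0.056, edgeR adjusted p 2.73e-29). Its libraries at LPS 15 min (23.1, 21.0 and 17.4 CPM) and 30 min (19.3, 19.3 and 20.2 CPM) overlapped PBS. Ifit3, the group's highest per length, went from 57.6, 57.4 and 60.7 CPM in PBS to 3861, 3846 and 3887 (log2 6.04, SE 0.050, edgeR adjusted p 3.85e-29). At LPS 15 min Ifit3 stood at 63.0, 61.6 and 51.9 CPM, overlapping PBS, and at LPS 30 min at 70.8, 64.6 and 65.2, above it (log2 0.19, not called). In TPM its LPS 30 min libraries (61.6, 55.9 and 55.8) overlapped PBS (61.7, 61.2 and 63.9). Ifit3b went from 17.5, 16.0 and 17.9 to 1312, 1350 and 1294 CPM (log2 6.27, SE 0.051), and its libraries at LPS 15 min (20.1, 18.2 and 16.1 CPM) and 30 min (19.7, 17.0 and 17.6 CPM) overlapped PBS. Of the 31-base words in Ifit3 transcripts 61.8% also occur in Ifit3b, so the split of fragments between these neighbours on chromosome 19 is uncertain. Ifit1 was at 0.59 (SE 0.041) on the log2 scale at LPS 30 min, at the 1.5-fold limit and not called.

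The OAS enzymes make short 2′-5′ linked oligoadenylates, which activate RNase L; the OAS-like OASL1 lacks this activity. All 7 rose at LPS 4 h, by 3.22 (Oas2) to 6.51 (Oasl1) on the log2 scale. Oasl1, a translational repressor of IRF7, went from 7.11, 7.86 and 7.67 CPM in PBS to 709, 676 and 683 at LPS 4 h, 91.1-fold higher (edgeR adjusted p 5.51e-30). Its libraries at LPS 15 min (6.64, 6.71 and 5.77 CPM) lay below PBS (log2 -0.25, not called), and those at LPS 30 min (6.89, 6.02 and 7.32 CPM) overlapped it. Oasl2, the highest of the group per length (68.3 TPM in PBS, 480 at LPS 4 h), went from 70.4, 74.8 and 76.8 to 947, 988 and 982 CPM (log2 3.72, SE 0.037). Before that, Oasl2 lay below every PBS library at both early times, with 62.6, 64.1 and 57.0 CPM at LPS 15 min and 55.5, 56.9 and 54.9 at LPS 30 min (log2 -0.27 and -0.41, not called beyond 1.5-fold).

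Oas3 was the least abundant member. Oas3 stood at 0.262, 1.18 and 0.229 CPM in PBS, 0.373, 0.424 and 0.603 at LPS 15 min, 0.606, 0.172 and 0.849 at LPS 30 min, and 39.8, 39.5 and 39.2 at LPS 4 h. The LPS 4 h libraries lay close together and far above the rest. The log2 fold change was 6.08 (SE 0.30, edgeR adjusted p 5.67e-14), and 7.29 without PBS replicate 2, so its size rested on 1 control library with few counts. Oas1a and Oas1g share 68.7% of the 31-base words of Oas1a, and their split is uncertain. In C57BL6 mice Oas1b carries a premature stop codon; its RNA rose by 3.63 on the log2 scale.

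The next group holds proteins that stop viruses at membranes or inside the cell. All 7 rose at LPS 4 h, with a median log2 fold change of 6.15. Mx1, a dynamin-like GTPase that is defective in most laboratory strains including C57BL6, stood at 1.65, 1.48 and 1.91 CPM in PBS, 0.983, 1.83 and 1.62 at LPS 15 min, 1.21, 1.55 and 1.38 at LPS 30 min, and 639, 659 and 651 at LPS 4 h. No early library went beyond the PBS range upward, and the 4 h libraries were 388-fold higher (log2 8.60, SE 0.066, edgeR adjusted p 1.01e-29). Mx2 went from 5.5, 7.21 and 6.45 CPM in PBS to 515, 534 and 514 at LPS 4 h (log2 6.34, SE 0.069), with 5.05, 7.47 and 7.20 CPM at LPS 15 min. Its LPS 30 min libraries (8.32, 8.17 and 7.91 CPM) lay above all PBS libraries by 0.34 on the log2 scale, which was not called beyond 1.5-fold. In TPM those libraries (12.5, 6.61 and 5.15) overlapped PBS (6.5, 5.53 and 8.13).

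Rsad2 (viperin) makes a nucleotide that terminates viral RNA chains, and Cmpk2, its neighbour on chromosome 12, makes the nucleotide it starts from. Rsad2 stood at 26.2, 25.0 and 27.7 CPM in PBS, 25.2, 23.9 and 21.1 at LPS 15 min, 20.7, 23.0 and 22.3 at LPS 30 min, and 8726, 8722 and 8608 at LPS 4 h. It lay below PBS without overlap at LPS 30 min (log2 -0.26, not called beyond 1.5-fold) and 330-fold above PBS at LPS 4 h (log2 8.37, SE 0.046, edgeR adjusted p 2.18e-32). Cmpk2 went from 36.1, 35.0 and 37.8 to 2587, 2541 and 2593 CPM at LPS 4 h (log2 6.15, SE 0.046), and its libraries at LPS 15 min (40.2, 36.2 and 33.7 CPM) and 30 min (36.3, 33.1 and 36.8 CPM) overlapped PBS. Ifitm3, which blocks entry of enveloped viruses from endosomes, was the highest member per length in every group. It stood at 235, 253 and 246 CPM in PBS, 245, 229 and 236 at LPS 15 min, 295, 281 and 292 at LPS 30 min, and 2095, 2085 and 2089 at LPS 4 h. Its gain at LPS 4 h was 8.55-fold on the CPM scale (log2 3.10, SE 0.030, edgeR adjusted p 2.09e-27). In TPM it was smaller, from 901 to 4186. Of its 31-base words, 20.5% occur in other genes. Bst2 (tetherin), which holds budding virions at the cell surface, rose least in the group (log2 2.59, SE 0.042).

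Of the 4 genes that act on RNA, PKR (Eif2ak2) halts translation on double-stranded RNA, ADAR edits it, ISG20 is an exonuclease and HELZ2 a helicase. All 4 rose at LPS 4 h. Isg20 stood at 6.74, 7.59 and 8.28 CPM in PBS, 8.44, 10.2 and 7.84 at LPS 15 min, and 11.7, 11.4 and 9.42 at LPS 30 min, and its LPS 4 h libraries held 596, 584 and 578 CPM. Its LPS 30 min libraries lay above all PBS libraries (log2 0.53, not called), and at LPS 4 h it was 77.8-fold higher (log2 6.28, SE 0.061, edgeR adjusted p 8.44e-28). In TPM its LPS 30 min libraries (19.4, 18.9 and 15.1) overlapped PBS (13.8, 16.6 and 17.0). Helz2 was at 0.54 (SE 0.029) at LPS 30 min and 3.65 at LPS 4 h. Adar, with the highest TPM of the group in PBS, changed least, from 120, 116 and 114 CPM to 555, 569 and 581 at LPS 4 h (log2 2.28, SE 0.028). Adar stood at 122, 126 and 126 CPM at LPS 15 min, above PBS, and at 106, 108 and 107 at LPS 30 min, below it, neither called beyond 1.5-fold. In TPM its LPS 15 min libraries (46.3, 46.7 and 46.7) overlapped PBS (47.2, 49.9 and 44.7).

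Adar is known to make a long protein that interferon induces and a short one that is made constantly, from different starts. In the annotation, Adar-203 encodes 1178 codons and starts at chr3:89730748, and Adar-202 encodes 930 codons and starts upstream, at chr3:89715022. Transcripts of 1000 codons or more held 48.8%, 31.3% and 48.0% of the Adar TPM in PBS, 59.8%, 61.1% and 51.0% at LPS 15 min, 44.4%, 61.7% and 45.7% at LPS 30 min, and 59.1%, 59.4% and 57.7% at LPS 4 h. The LPS 4 h and LPS 15 min libraries lay above all PBS libraries and the LPS 30 min libraries overlapped them. The difference at LPS 4 h was 16.1 percentage points (exact permutation test, two-sided p = 0.1, the smallest that 3 against 3 allows), and 10.3 points without PBS replicate 2. At LPS 15 min it was 14.6 points (exact permutation test, two-sided p = 0.1). Adar-202 held 17.5% ± 6.29 (SD, n = 3) in PBS and 1.52% ± 0.660 at LPS 4 h. In TPM, Adar-203 went from 20.0 to 69.8 and Adar-202 from 8.35 to 1.82. Both are estimates by the quantifier, since the transcripts share most of their sequence. Adar-205, which encodes 634 codons and has the same start as Adar-203, also rose, from 7.46 to 23.3 TPM.

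**Figure D4:**
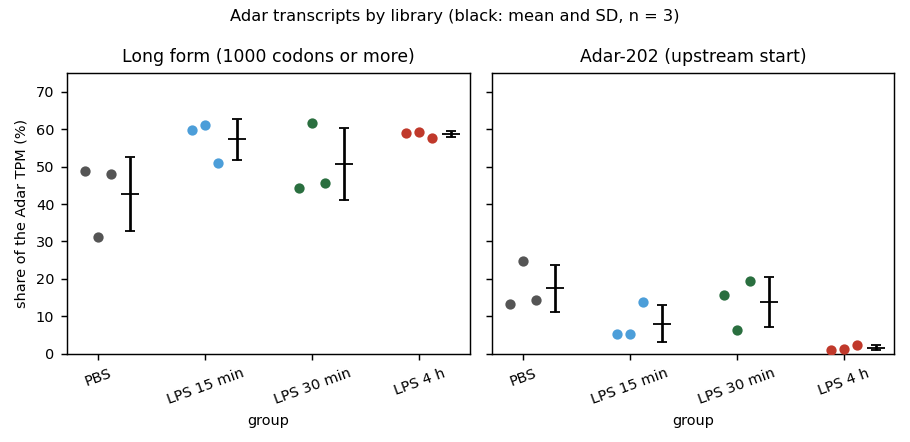
Share of the Adar TPM (vertical, %) held by transcripts of 1000 codons or more (left) and by Adar-202, which starts upstream (right), in each library (points) with mean and SD (black, n = 3). At LPS 4 h the long-form points lie between 57.7% and 59.4% and the Adar-202 points between 1.02% and 2.27%; the PBS points spread from 31.3% to 48.8% and from 13.4% to 24.7%.

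Of 32 members with at least 2 transcripts of mean 50 or more fragments, Adar included, the largest shifts beside Adar were in Ifi47, Pml, Ifi44, Iigp1 and Uba7. Ifi47-202, which starts at chr11:49076587, held 47.8%, 42.2% and 97.7% of the Ifi47 TPM in PBS and 23.1%, 28.8% and 24.1% at LPS 4 h, while Ifi47-201, which starts at chr11:49087039 and encodes the same 420 codons, held 71.9% on average at LPS 4 h. PBS replicate 3 stood apart; without it the difference was 19.7 points instead of 37.2, both downward. Pml-202 (839 codons) went from 50.1%, 46.4% and 38.9% to 12.1%, 15.8% and 11.3%, and Pml-201 (885 codons, same ends) from 12.3% to 40.6% on average. Ifi44-201 went from 83.6% to 69.0%, Iigp1-201 from 24.4% to 11.6% and Uba7-212, a retained intron, from 37.1% to 24.9%. In all 5 the LPS 4 h and PBS libraries did not overlap, but the 5 were chosen for the largest shifts between these same groups. Shifts as small as 0.358 points, in Iigp1-203, were also without overlap.

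The immunity-related GTPases (IRG) attack the vacuoles in which bacteria and parasites live and respond most to interferon gamma. All 6 rose at LPS 4 h, by 3.16 (Irgm2) to 5.71 (Iigp1). Tgtp1 stood at 32.9, 31.1 and 35.7 CPM in PBS, 62.6, 48.0 and 41.8 at LPS 15 min, 73.2, 73.4 and 67.2 at LPS 30 min, and 1465, 1525 and 1482 at LPS 4 h. Its increase was the largest of the 54 at both early times: every LPS 15 min library lay above PBS (log2 0.62, SE 0.090, not called beyond 1.5-fold), and at LPS 30 min it was called (log2 1.10, SE 0.088, edgeR adjusted p 2.49e-05). Its transcripts share 83.2% of their 31-base words with Tgtp2, which was also called at LPS 30 min (log2 0.81), so the split of fragments between them is uncertain. Tgtp1 was 44.9-fold above PBS at LPS 4 h.

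Iigp1, the highest IRG gene per length at LPS 4 h (739 TPM), went from 47.1, 44.0 and 44.4 CPM in PBS to 2338, 2411 and 2320 (log2 5.71, SE 0.062, edgeR adjusted p 4.82e-27). With 41.5, 35.9 and 29.9 CPM at LPS 15 min and 39.6, 37.7 and 37.6 at LPS 30 min it lay below all PBS libraries, by less than the test required. Igtp, the highest in PBS (52.4 TPM), went from 57.6, 59.2 and 60.3 to 922, 925 and 926 CPM (log2 3.97, SE 0.066), with 80.3, 68.6 and 58.8 CPM at LPS 15 min and 62.2, 61.0 and 70.0 at LPS 30 min. Irgm1 was at 0.27 and 0.29 on the log2 scale at the early times and 4.26 at LPS 4 h.

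PARP9, PARP12 and PARP14 belong to the ADP-ribosyltransferase family and DTX3L is the ubiquitin ligase partner of PARP9. All 4 genes rose at LPS 4 h, by 3.05 (Parp12) to 4.99 (Parp14). Parp14, the highest of them at LPS 4 h (249 TPM), went from 66.2, 67.9 and 63.0 CPM in PBS to 2113, 2083 and 2083 at LPS 4 h (SE 0.033, edgeR adjusted p 9.61e-31). Its libraries lay below PBS at LPS 15 min (61.8, 60.2 and 62.3 CPM) and above it at LPS 30 min (69.4, 74.9 and 69.1 CPM), neither called beyond 1.5-fold. In TPM, however, the LPS 30 min libraries (12.5, 13.4 and 12.2) lay below PBS (14.8, 15.0 and 13.6). Parp12, the highest in PBS (49.8 TPM), went from 66.7, 71.7 and 75.9 to 592, 589 and 594 CPM, after 60.7, 57.0 and 58.3 CPM at LPS 15 min, below PBS, and 59.1, 69.3 and 61.6 at LPS 30 min, overlapping it.

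The TRIM proteins are ubiquitin ligases, and PML and SP100 build nuclear bodies. All 5 genes rose at LPS 4 h, by 1.86 (Trim25) to 4.70 (Trim30a), and none was called before. At both early times 4 of the 5 had a lower level than PBS with no overlap, all but Trim30a; of all genes tested 24.1% did at LPS 15 min and 23.0% at LPS 30 min. Sp100 stood at 103, 101 and 109 CPM in PBS, 80.5, 76.2 and 75.1 at LPS 15 min, 80.0, 80.2 and 78.0 at LPS 30 min, and 815, 842 and 823 at LPS 4 h. The log2 fold changes were -0.43, -0.39 and 2.98, the last with an edgeR adjusted p of 1.77e-26. Trim25, a ligase that activates the RNA sensor RIG-I, was lowest at LPS 30 min (66.5 to 69.0 CPM against 99.2 to 109 in PBS; log2 -0.65, edgeR adjusted p 0.279) and only 3.63-fold above PBS at LPS 4 h.

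The Schlafen genes form an interferon-induced family, of which Slfn5 encodes a nuclear member; all 3 members listed rose at LPS 4 h. Slfn5 stood at 254, 252 and 237 CPM in PBS, 300, 298 and 291 at LPS 15 min, 399, 395 and 383 at LPS 30 min, and 2911, 2985 and 2984 at LPS 4 h. The 4 groups did not overlap and each lay above the one before. At LPS 30 min Slfn5 was called with a log2 fold change of 0.67 (SE 0.026, edgeR adjusted p 0.0152), just past the limit, and the call was lost under 9 of 17 alternatives, for example DESeq2 (log2 0.65, adjusted p 0.226). At LPS 4 h it was at 3.58 (SE 0.028). Slfn8 stood at 3.78 to 4.25 CPM in PBS and 1.81 to 2.54 at LPS 15 min (log2 -0.79, edgeR adjusted p 0.446), and was 22.6-fold above PBS at LPS 4 h; 19.1% of its words occur in Slfn9. Slfn2 rose by 4.56 on the log2 scale at LPS 4 h.

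Galectin-9 and the galectin-3-binding protein are secreted lectin-system proteins. Lgals9 went from 74.6, 81.0 and 78.4 CPM in PBS to 975, 975 and 966 at LPS 4 h (log2 3.64, SE 0.030, edgeR adjusted p 7.27e-29). It stood at 79.6, 79.0 and 76.2 CPM at LPS 15 min, overlapping PBS, and at 86.0, 84.9 and 84.5 at LPS 30 min, above it (log2 0.13, not called). In TPM, however, its LPS 30 min libraries (87.0, 85.5 and 84.1) lay below PBS (92.6, 101 and 96.5). Lgals3bp, the higher of them in PBS (103 TPM), stood at 106, 102 and 113 CPM in PBS, 82.3, 85.2 and 82.8 at LPS 15 min, 85.0, 89.1 and 91.1 at LPS 30 min, and 719, 694 and 699 at LPS 4 h. It was below PBS without overlap at the early times and 6.59-fold above it at LPS 4 h.

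The remaining 7 genes have mixed or less settled roles, and all rose at LPS 4 h by 1.25 (Ifi27l2a) to 5.03 (Epsti1). Xaf1, a promoter of apoptosis, had the highest TPM of them at LPS 4 h (401, against 346 for Ifi35), whereas in PBS the libraries of these genes overlapped and at the early times Ifi35 was higher. Xaf1 went from 37.6, 42.7 and 38.7 CPM in PBS to 318, 328 and 309 at LPS 4 h (log2 3.00, SE 0.043). It stood at 39.7, 39.1 and 40.3 CPM at LPS 15 min, overlapping PBS, and at 34.5, 35.9 and 36.8 at LPS 30 min, below it (log2 -0.15, not called). Ifi27l2a, the member with the smallest change, stood at 6.14, 6.74 and 6.94 CPM in PBS and 16.2, 15.3 and 15.8 at LPS 4 h (SE 0.14, edgeR adjusted p 3.96e-05). Its call was lost when counts were scaled by library size alone (log2 0.55, edgeR adjusted p 0.470). Ifi35 was at 0.40 and 0.50 at the early times and 3.07 at LPS 4 h.

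**Figure D5:**
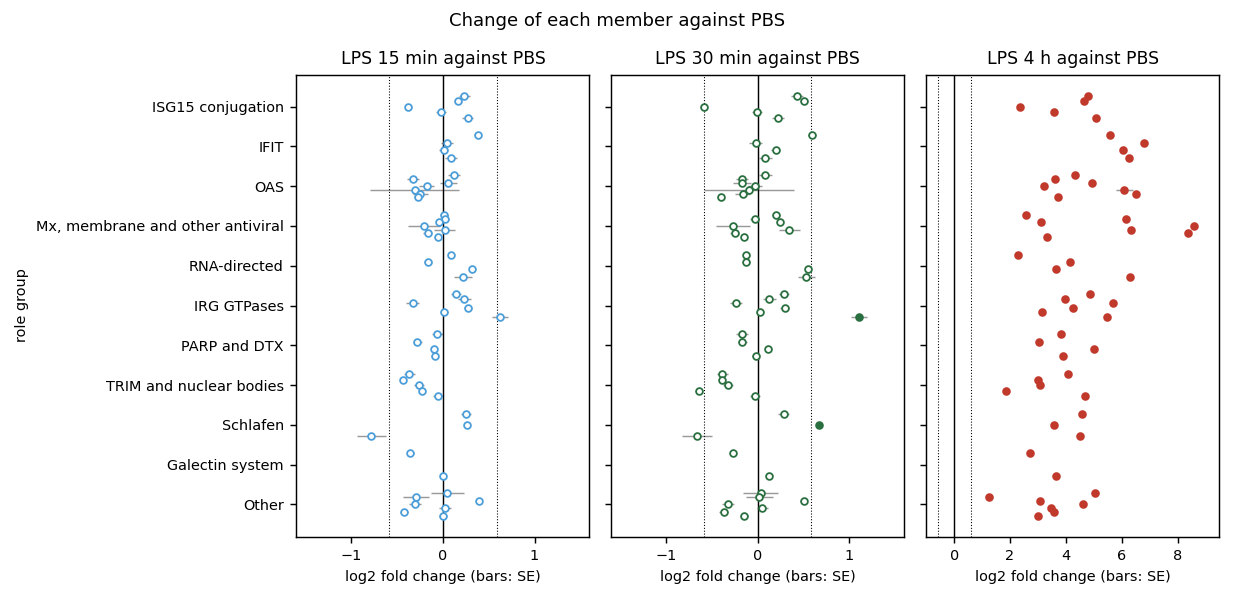
Log2 fold change against PBS of each of the 54 genes (points; bars, SE) by role group, at LPS 15 min (left), 30 min (middle) and 4 h (right, wider axis). Filled points passed the test beyond 1.5-fold (dotted lines): none at 15 min, Tgtp1 and Slfn5 at 30 min, all 54 at 4 h, where points span 1.25 to 8.60.

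Changes smaller than 1.5-fold went both ways at the early times. With no fold limit, edgeR called 13 members higher (24.1%) and 17 lower (31.5%) at LPS 15 min, where 20.4% of all genes were called higher and 18.2% lower. At LPS 30 min it called 18 higher (33.3%) and 19 lower (35.2%), where 19.7% and 17.2% of all genes were called. Scaled by library size alone, with which the median of all genes at LPS 30 min moved to -0.17 and at LPS 4 h to -0.71, the LPS 30 min counts were 10 higher and 28 lower. Without overlap with PBS, 11 members lay higher and 18 lower at LPS 15 min, where 25.2% and 24.1% of all genes did, and 19 higher and 16 lower at LPS 30 min, where 23.7% and 23.0% did. From LPS 15 min to LPS 30 min 15 lay higher and 7 lower without overlap, where 23.7% and 23.9% of all genes did. Called higher than PBS at both early times with no fold limit were 11 members (20.4%, against 9.47% of all genes tested), among them Isg15, Usp18, Ifit1, Herc6, Irgm1, Tgtp1, Slfn5 and Helz2. Lower at both were 15 (27.8%, against 9.43%), among them Rsad2, Oasl2, Iigp1, Trim25, Sp100, Pml, Uba7, Eif2ak2 and Slfn8. Of the 11 called higher at both, Usp18, Irgm1, Herc6, Ifi47 and Slfn2 overlapped PBS in TPM at LPS 30 min. The means of Usp18 (22.4 against 23.6 TPM in PBS), Irgm1 (41.6 against 42.4) and Slfn2 (29.0 against 29.3) were then lower. Isg15, Ifit1, Ifi35, Tgtp1, Slfn5 and Helz2 lay above all PBS libraries in TPM at that time. The early comparisons share the PBS libraries.

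Beyond the limit, 0 members were called at LPS 15 min by edgeR, DESeq2 or limma; edgeR gave 0 of them an unadjusted p below 0.05 upward and 1 downward, and DESeq2 and limma gave none. At LPS 30 min DESeq2 called 1 higher, as did limma, and none was called lower; edgeR gave 1 an unadjusted p below 0.05 downward, limma 1 and DESeq2 0.

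Of the 20 interferon genes, none had enough fragments to be tested. Ifnb1, encoding interferon beta, had no fragment in any PBS or LPS 15 min library, 1 in all of LPS 30 min, and 2, 1 and 1 at LPS 4 h. Ifng had 0 in each PBS library, 3, 1 and 0 at LPS 15 min, 1, 8 and 1 at LPS 30 min, and 4, 6 and 9 at LPS 4 h. In a PBS group at 0, up to 3 fragments over the group cannot be told from none, which covers counting error only. No fragment was assigned in any of the 12 libraries to 13 of the 20.

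The receptors were present throughout. Ifnar1, a chain of the type I interferon receptor, stood at 183, 178 and 178 CPM in PBS and 151, 161 and 155 at LPS 4 h (log2 -0.21, not called). Ifnar2, its partner, stood at 108, 113 and 109 and then 172, 158 and 175 CPM (log2 0.61, edgeR adjusted p 0.257). Of the interferon gamma receptor, Ifngr1 stood at 68.3, 71.5 and 69.3 CPM in PBS and 105, 104 and 107 at LPS 4 h (log2 0.60, edgeR adjusted p 0.402), and Ifngr2 rose from 19.7, 17.8 and 20.1 to 45.4, 39.1 and 42.1 (log2 1.14, edgeR adjusted p 1.70e-05).

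Of 12 genes of receptors and signalling 7 were called higher at LPS 4 h, against 19.0% of all genes tested, and none before. Stat2 went from 80.7, 85.4 and 82.3 CPM in PBS to 612, 591 and 597 at LPS 4 h (log2 2.86), and Irf9 from 66.3, 75.7 and 72.9 to 281, 300 and 300 (log2 2.04). Both were called by edgeR, with adjusted p of 1.67e-25 and 4.57e-20. Stat2 and Irf9 lay above PBS without overlap at LPS 15 min (log2 0.25 and 0.30), neither called beyond 1.5-fold. Of the 12 genes, 4 lay higher and 4 lower without overlap at that time, where 25.2% and 24.1% of all genes did.

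Among the other IRF genes, Irf1 was called at LPS 30 min. It stood at 76.3, 79.9 and 78.8 CPM in PBS, 109, 103 and 105 at LPS 15 min, 552, 542 and 545 at LPS 30 min, and 787, 813 and 815 at LPS 4 h. The log2 fold change at LPS 30 min was 2.80 (SE 0.029, edgeR adjusted p 6.36e-26), when 52 of the 54 members were not called. Irf7, the interferon-induced factor that amplifies type I interferon production, went from 61.3, 63.6 and 61.2 CPM to 1668, 1626 and 1655 at LPS 4 h (log2 4.73) and lay between 67.0 and 69.3 at LPS 30 min.

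Of 10 sensors of RNA and DNA, 9 were called higher at LPS 4 h, against 19.0% of all genes tested. Ddx60, a helicase linked to RIG-I, fell before it rose: 16.5, 17.5 and 16.4 CPM in PBS, 9.62, 9.51 and 9.39 at LPS 15 min, 9.01, 8.69 and 9.02 at LPS 30 min, and 190, 204 and 192 at LPS 4 h. It was called lower at both early times (log2 -0.82 and -0.92, edgeR adjusted p 0.00378 and 0.000175) and higher at LPS 4 h (3.54).

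Among 21 relatives of the members 18 could be tested, and 16 were called higher at LPS 4 h, against 19.0% of all genes tested. Trim30b was called lower at LPS 15 min, at 0.305, 0.255 and 0.302 CPM against 0.711, 0.641 and 1.03 in PBS (log2 -1.43, edgeR adjusted p 0.0371), and Oas1c at LPS 30 min, at 2.25, 2.06 and 2.41 against 4.45, 5.02 and 4.39 CPM (log2 -1.04, edgeR adjusted p 0.0354). Tgtp2 and Ifitm1 (log2 0.79) were called higher at LPS 30 min. Of the 7 genes from TLR4 to interferon induction, 1 (Cd14, log2 4.16) was called higher at LPS 30 min and 4 at LPS 4 h. The shares of all genes tested called higher at these times were 3.78% and 19.0%.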

How the data were processed

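RNA of 12 libraries, made by full-length cDNA amplification without molecular identifiers, was sequenced in pairs. The authors quantified transcripts with Salmon against GRCm38.p6; the submitters' processing notes give Salmon 1.2.1 and DESeq2. The deposited estimated counts are fragments assigned to each transcript, not normalized. The deposited TPM values are the authors' Salmon output, relative to effective length. The deposited gene table holds a signal, counts that the authors normalized with DESeq2 and tximport.

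Transcripts were summed to GENCODE M21 genes (139852 of 140948 joined; the 1096 others held 0.482% to 0.850% of fragments) and rounded. With edgeR 4.0.16, filterByExpr (minimum count 10, total 15, share 0.7) kept 19150 genes; TMM factors averaged 1.17 in PBS and 0.717 at LPS 4 h. All libraries entered 1 quasi-likelihood fit, tested against 1.5-fold; the SE is the log2 fold change over the square root of F without a fold limit, and the common dispersion corresponds to a biological variation of 0.0524. The test was tried on simulated data. Alternatives were DESeq2 1.42.0, limma 3.58.1 on the gene table (log2 with a pseudocount of 1 or 10), other scalings and filters, a replicate block, and each library left out. Same-numbered libraries deviated with correlations of -0.0672 to 0.0516 in 18 comparisons, so numbers were not taken as pairs. p-values measure the spread between pools of mice. Overlap of libraries is given on the CPM scale unless TPM or a share of it is named.

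The members and lists were chosen with earlier results of these data known. Values in every library were given for the 10 largest changes at LPS 4 h and for members called early. They were also given for the highest TPM per role group in PBS and at LPS 4 h, and in part for set pathway genes. Others named were chosen after their values were seen. Promoter windows were RefSeq's; transcript words were 31 bases long. The libraries do not mark strand, so overlapping antisense RNA cannot be told apart. Some genes of the pathway lists are not reported here.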

Additional observations from a re-analysis of the deposited data

Results flagged for a closer look

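The change from PBS differed between LPS 30 min and LPS 4 h in all 54 members, as tested directly between those groups with edgeR beyond 1.5-fold, where 16.9% of all genes tested were called higher. In 19 members the direction turned as well: they were called lower than PBS at LPS 30 min with no fold limit and higher at LPS 4 h, among them Rsad2, Oasl2, Iigp1, Trim25, Sp100, Pml and Uba7. That is 35.2% of the members, against 2.13% of all genes tested that turned this way and 17.2% that were called lower at LPS 30 min whatever came later. Groups of 3 are too small for a search for single outlying libraries.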

How the results depend on the processing

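At LPS 4 h the count of members called higher stayed at 53 or 54 under all 18 alternatives run, and of 918 values of single members none turned direction and 2 lost the call, both for Ifi27l2a (scaling by library size alone, and an added log2 limit of 1.5). The median of 4.11 at LPS 4 h was 3.41 with library size alone, 4.06 without the filter on low counts, 4.05 with a transcript length offset, 4.07 in a fit of the compared groups, 4.04 and 4.03 with limma at a pseudocount of 1 and 10, and 4.08 to 4.13 with 1 library left out. At LPS 15 min the median of -0.01 ranged from -0.05 to -0.01 with 1 library left out; at LPS 30 min the median of -0.02 was -0.19 with library size alone and -0.04 to 0 with 1 library left out. Without a fold limit, 13 members were called higher and 17 lower at LPS 15 min, 18 and 19 at LPS 30 min, and 15 and 6 between LPS 15 min and LPS 30 min; with library size alone and no fold limit, an alternative chosen after seeing the data, these were 11 and 19, 10 and 28, and 5 and 19. The cause was not tested. The 2 calls upward at LPS 30 min became 1 with library size alone, the length offset, DESeq2 or limma at either pseudocount, 0 with an added log2 limit of 1.5, and 1 or 2 with 1 library left out (1 without PBS replicate 3, LPS 30 min replicate 1 or LPS 30 min replicate 2); where 1 remained, the call lost was that of Slfn5. The 0 downward at LPS 30 min became 2 with library size alone and 0 or 1 with 1 library left out (1 without PBS replicate 3). A fit with the replicate number as a block called 54 members higher at LPS 4 h, 2 at LPS 30 min and 0 at LPS 15 min, and changed no other call of a member; the numbers mark no pairing. The Adar long-form difference was 22.8 points in fragments and 10.3 to 19.1 points with 1 library left out, and the Ifi47-202 shift was -47.4 to -19.7 points, the leave-out of the latter chosen after seeing the data. With the longer motifs, 14 members held an ISRE followed by C, and 4 held GAS as TTCCNGGAA in place of 11. Depth limited Oas3 in PBS and the interferon genes.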
